A study of Sus scrofa with 15 samples.

Results

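The genes described here are those of mitochondrial fatty acid oxidation and of ketone body metabolism in pig liver, together with the enzymes that prepare fatty acids for this pathway and a few genes of the fasting response. They were taken by symbol from a list of 34 genes, with no threshold on a measured value. Of these, 31 have a row in the count table of 31908 Ensembl pig genes, and ECI1, FABP1 and CD36 were not analysed here because no identifier of the table is paired with these symbols. A total of 30 genes passed the filter on low counts among 12774 tested genes, and ETFB did not.

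Male crossbred piglets (Duroc x Large White x Landrace) were injected intraperitoneally with 80 μg/kg of lipopolysaccharide (LPS), the bacterial outer membrane component that triggers sepsis-like inflammation, or with sterile saline (CON group). The study used 12 piglets, 6 per treatment, and took the liver 4 h after injection. RNA-seq was run on polyadenylated liver RNA saved as the input of an m6A immunoprecipitation, with 3 input libraries per group. The age of the animals was not given in the sources used here, and neither was whether a library holds 1 piglet or a pool, so a p-value measures the spread between these libraries. In RNA from whole liver, fewer hepatocytes and less RNA per hepatocyte cannot be told apart.

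Fatty acids are activated to acyl-CoA in the cytosol, carried into mitochondria as carnitine esters, and shortened there by repeated rounds of dehydrogenation, hydration, a further dehydrogenation and thiolysis. The electrons pass through the electron transfer flavoprotein to the respiratory chain, and in the fasting liver the acetyl-CoA is partly converted to ketone bodies, a route for which pigs are known to have little capacity. The nuclear receptor PPAR alpha drives many of these genes during fasting.

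Total counts ranged from 4348478 to 19967417 per library, and mitochondrially encoded genes held 1.17% to 3.22% of them. The LPS libraries differed among themselves, and LPS replicate 2 was the one closest to the CON libraries. CPM here are counts scaled to the library size after TMM. Across the 12774 tested genes, which share each library's depth and are not replicates, Pearson's r of log2 CPM was 0.928 to 0.949 between LPS replicate 2 and the CON libraries, 0.914 between it and LPS replicate 1, 0.858 between it and LPS replicate 3, and 0.909 between LPS replicates 1 and 3. With the CON libraries, LPS replicate 1 gave 0.861 to 0.906 and LPS replicate 3 gave 0.844 to 0.879. The labels do not settle whether LPS replicate 2 comes from a piglet that responded little or is a mislabelled sample, which was not tested. The main counts and the genes it affects are therefore also given without this library. Because it was singled out by its likeness to the CON group, leaving it out widens the difference between the groups by construction, so values without it are a description and no independent support. The tissue label was checked against hepatocyte markers, of which 16 of 17 had a row, none at 0 in every library, and their summed level was 90186 to 108162 CPM in the CON group and 71391 to 145046 CPM in the LPS group. Relative to the CON mean, the median hepatocyte marker was at -0.81, -0.39 and -0.03 on the log2 scale in LPS replicates 1, 2 and 3. Of 10 tested neutrophil markers, 5 were higher at an unadjusted p below 0.05 in edgeR, where 6.18% of all tested genes were higher. The neutrophil markers with a row summed to 61.4 to 109 CPM in the CON group and 164 to 395 CPM in the LPS group. Of 11 tested Kupffer cell or macrophage markers, 3 were lower at that p, where 6.33% of all tested genes were lower. The macrophage markers summed to 2011 to 3261 CPM in the CON group and 1376 to 2316 CPM in the LPS group, with LYZ at 0 in every library. Adipocyte and muscle markers were scarce, with ADIPOQ, LEP, ACTA1 and TNNT3 at 3 counts or fewer over all libraries. The summed adipocyte markers were nevertheless 93.1 CPM in LPS replicate 2, of which PLIN4, a lipid droplet protein, gave 80.7 CPM, against 14.8 to 31.9 CPM in the CON group and 36.6 and 4.92 CPM in LPS replicates 1 and 3. The part of these cell types in the results below was not tested.

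Most genes of fatty acid oxidation had lower levels in the LPS livers, but edgeR with its filter on low counts called none of them when all 6 libraries were used. The edgeR log2 fold change (LPS minus CON) was below 0 in 26 of the 30 tested genes and above 0 in 4, namely CPT1A, ACSL5, ECI2 and ANGPTL4. The median over the 30 genes was -0.72, beside 0.01 over all tested genes. A gene was called when its edgeR p, adjusted by the Benjamini-Hochberg method, was below 0.05 and its fold change exceeded 1.5. On this rule edgeR called 0 of the 30 genes, where 0.0548% of all tested genes (7 of 12774, each higher) were called. DESeq2 called 1 of them lower, ACAT1, where it called 0.951% of genes lower. Without the filter on low counts, edgeR tested 31 members and called 5 lower (ACADL, SLC27A2, ACAT1, FGF21 and VNN1), where 1.48% of 23529 genes were called lower. Those genes include the ones below the filter, which 30 of the members passed, so this share is not matched to the members in level. At an unadjusted p below 0.05, edgeR gave 8 of the 30 genes as lower and 0 as higher, where the shares over all tested genes were 6.33% and 6.18%. In 11 genes all 3 LPS values lay below all 3 CON values, an arrangement found in 9.8% of all tested genes, and in 0 genes did they all lie above, where the share was 6.52%.

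The 3 LPS libraries differed in how far they departed from the CON range. The median of the 30 genes relative to the CON mean was -1.18, -0.34 and -0.79 on the log2 scale in LPS replicates 1, 2 and 3, and 0.23, -0.18 and 0.04 in CON replicates 1, 2 and 3. LPS replicate 1 had 22 of the 30 genes below the lowest CON value, LPS replicate 3 had 21 and LPS replicate 2 had 14. LPS replicate 1 held the lowest of the 6 values in 17 genes. The genes summed to 4141, 3085 and 3909 CPM in the CON libraries and 1806, 3252 and 2624 CPM in the LPS libraries. The sum in LPS replicate 2 lay within the CON range, but ACSL1 alone gave 1023 CPM of it. ACSL1 was at 1247, 748 and 1237 CPM in the CON libraries and at 290.2 and 396 CPM in LPS replicates 1 and 3, so the sum leans on this gene. The neutrophil markers summed to 222, 164 and 395 CPM in LPS replicates 1, 2 and 3, so that LPS replicate 2 was the lowest LPS library for these markers, while the hepatocyte marker medians given above put LPS replicate 1 lowest. The part of either in these differences was not tested.

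**Figure D1:**
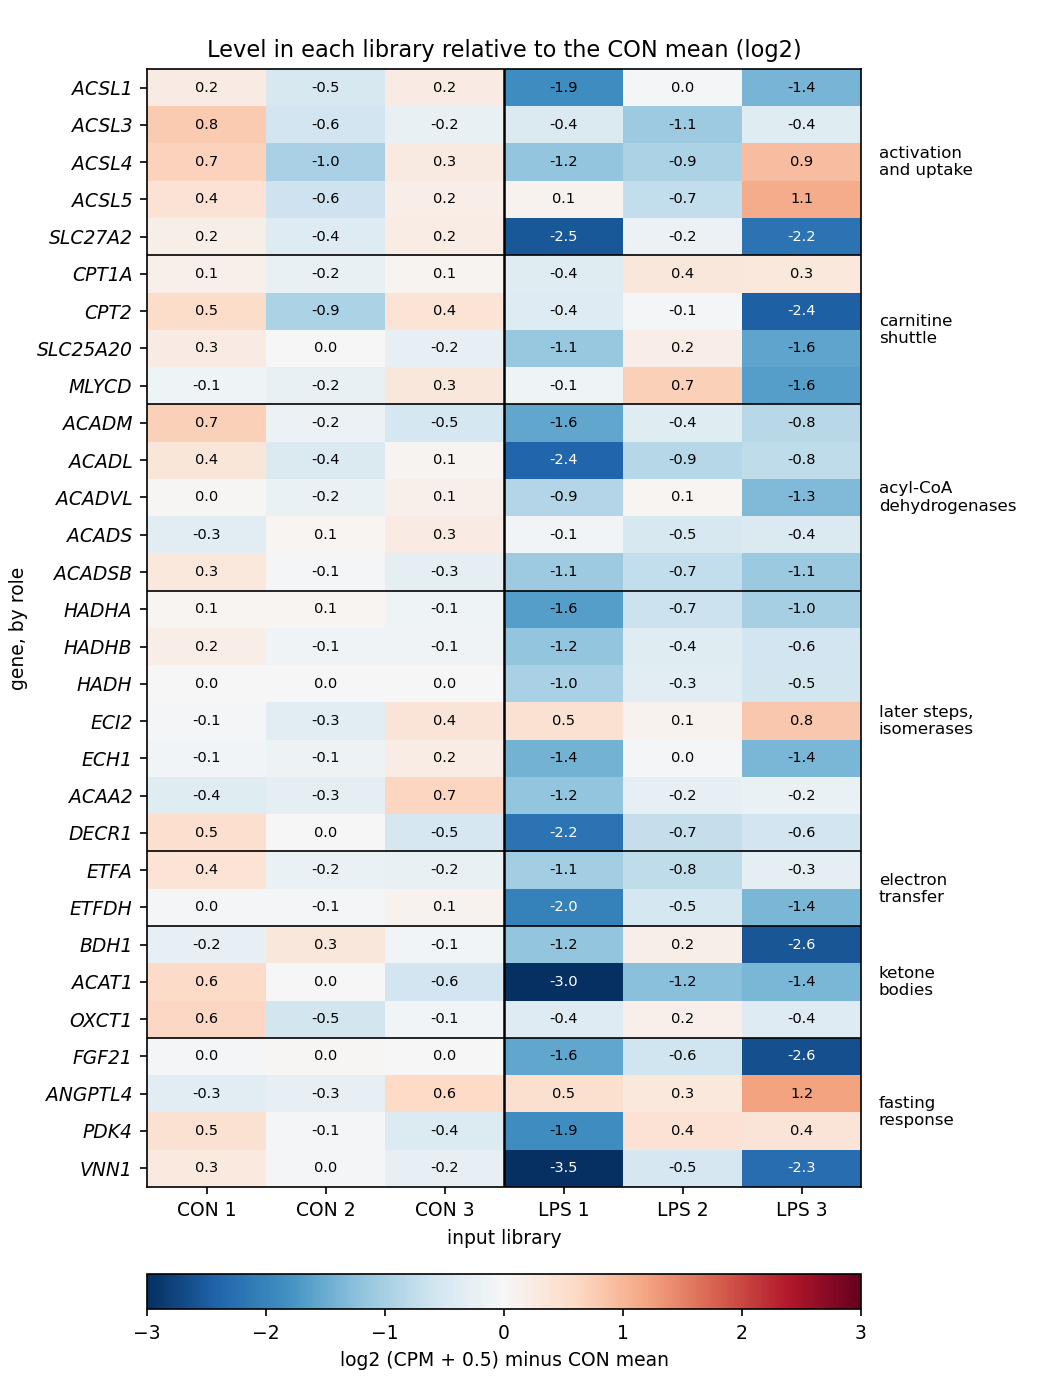
Level of each of the 30 tested genes in the 6 libraries, as log2 (CPM + 0.5) minus its mean over the CON libraries, with genes in rows grouped by role and libraries in columns. Blue cells are below and red cells above the CON mean, and most rows are blue in LPS replicates 1 and 3 and paler in LPS replicate 2.

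Without LPS replicate 2, edgeR called 9 of the 30 genes lower and 0 higher, where 3.45% of all 13632 tested genes were called lower and 3.76% higher. These 9 genes were ACSL1, SLC27A2, SLC25A20, ECH1, ETFDH, BDH1, ACAT1, FGF21 and VNN1. ETFB also passed the filter in that fit and was not called. The median log2 fold change of the 30 genes became -1.11, beside -0.02 over all tested genes. At an unadjusted p below 0.05, 16 genes were lower, where the share over all tested genes rose to 12.6%. Leaving out CON replicate 1 or LPS replicate 1 instead brought that last number from 8 to 5, where the shares over all tested genes were 3.56% and 3.53%, with 0 calls in either case. The 5 genes ACADSB, HADHA, ETFDH, ACAT1 and FGF21 were lower at an unadjusted p below 0.05 in each of the 13 fits that were run, namely the fit with all libraries and its 12 alternatives.

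**Figure D2:**
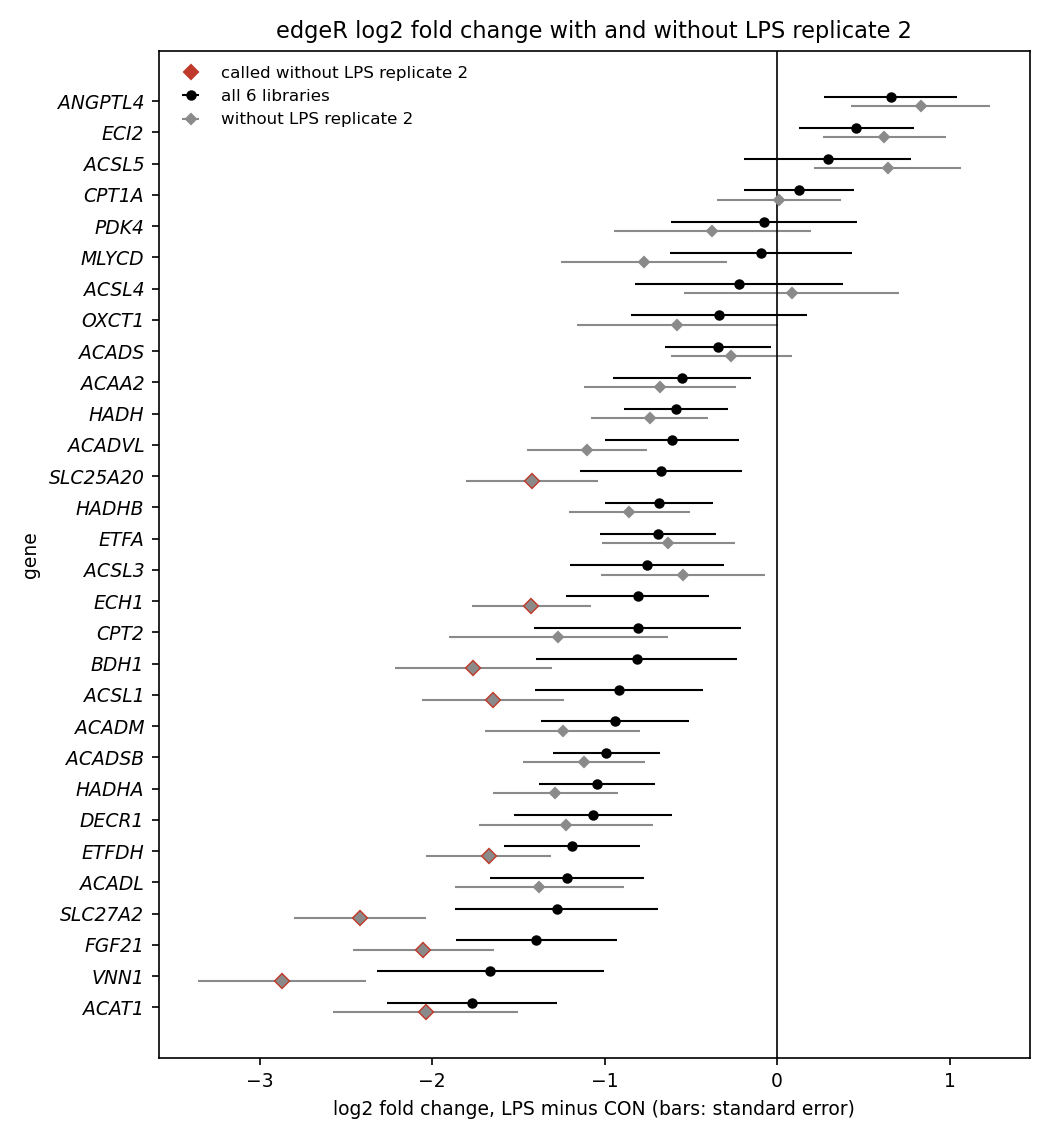
edgeR log2 fold change (LPS minus CON) of each tested gene with its standard error, from all 6 libraries (black) and without LPS replicate 2 (grey), with genes ordered by the first value. Red diamonds mark the 9 genes called without LPS replicate 2, and 26 of the 30 black points lie left of 0.

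Fatty acid uptake and activation was represented by 5 tested genes, of which 0 were lower at an unadjusted p below 0.05 (6.33% of all tested genes). Without LPS replicate 2, 2 were called lower (3.45% of all tested genes). With so few genes per role, these counts and those of the roles below are a description. ACSL1 is the main long-chain acyl-CoA synthetase of liver and links fatty acids to coenzyme A (ENSSSCG00000015784 on chromosome 15, 45866851 to 46090099). It measured 1247, 748 and 1237 CPM in CON replicates 1, 2 and 3 and 290.2, 1023 and 396 CPM in LPS replicates 1, 2 and 3. LPS replicates 1 and 3 were low while LPS replicate 2 lay among the CON values, and the log2 fold change of -0.92 ± 0.49 (standard error, as for every log2 fold change here) had an edgeR adjusted p of 0.476, against -1.65 ± 0.41 and 0.0352 without LPS replicate 2. SLC27A2, a very long-chain acyl-CoA synthetase that also aids fatty acid uptake, showed the same arrangement (ENSSSCG00000004643 on chromosome 1, 121526295 to 121579121). Its CON values were 89.5, 61.1 and 92.9 CPM and its LPS values 13.3, 70.5 and 16.8 CPM, in the order of the replicate numbers, which is kept throughout. Its LPS libraries spanned 5.30-fold and its CON libraries 1.52-fold, and the log2 fold change was -1.28 ± 0.59 (edgeR adjusted p = 0.418), or -2.42 ± 0.38 without LPS replicate 2 (edgeR adjusted p = 0.00525).

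The other acyl-CoA synthetases did not share this order of libraries. ACSL4, which prefers arachidonic acid, had 64.3, 20.2 and 48.1 CPM in the CON libraries and 17.2, 20.4 and 75.3 CPM in the LPS libraries, so that LPS replicate 3 was the highest and LPS replicate 1 the lowest of the 6. Its log2 fold change of -0.22 ± 0.60 was smaller than its standard error, and it lay above 0 without CON replicate 1, LPS replicate 1 or LPS replicate 2. ACSL5, a synthetase of mitochondria and endoplasmic reticulum, had 79.5 to 291 CPM in the LPS libraries around a CON range of 86.2 to 181 CPM, with a log2 fold change of 0.29 ± 0.48. ACSL3, the synthetase of lipid droplets, had 5.07 to 8.67 CPM against 7.50 to 20.02 CPM in the CON group and a log2 fold change of -0.75 ± 0.45. In the table, 1107 exon bases of ACSL3 also belong to MOGAT1 on the same strand, so reads there may be split between the genes or assigned to neither.

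Of the carnitine shuttle and its control, 0 of 4 genes were lower at an unadjusted p below 0.05 (6.33% of all tested genes). Without LPS replicate 2, 1 was called lower (3.45% of all tested genes). CPT1A, the liver form of the outer-membrane carnitine palmitoyltransferase and the step that limits entry into mitochondria, had 191 to 302 CPM in the LPS group and 209 to 269 CPM in the CON group. Its log2 fold change was 0.13 ± 0.32, and -0.0029 when libraries were scaled to total counts instead of TMM. CPT2, which turns the carnitine ester back into acyl-CoA on the inner membrane, had 68.0, 24.1 and 61.7 CPM in the CON libraries and 35.3, 45.0 and 8.12 CPM in the LPS libraries (ENSSSCG00000003851 on chromosome 6, 159036821 to 159061327). The lowest value, in LPS replicate 3, rests on 119 reads, and CON replicate 2 lay below the other 2 LPS libraries (log2 fold change -0.81 ± 0.60).

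SLC25A20, the carrier that exchanges acylcarnitine for carnitine across the inner membrane, had 20.5 to 28.9 CPM in the CON group and 7.71 to 27.8 CPM in the LPS group. LPS replicate 2 held its highest LPS value, and the log2 fold change of -0.67 ± 0.47 became -1.42 ± 0.38 without that library (edgeR adjusted p = 0.0469). MLYCD degrades malonyl-CoA, the inhibitor of CPT1A (ENSSSCG00000031450 on chromosome 6, 4681664 to 4698661). Its values were 18.1, 17.03 and 25.5 CPM in the CON libraries and 18.3, 33.0 and 6.01 CPM in the LPS libraries, so that LPS replicate 2 was the highest and LPS replicate 3 the lowest library of all. The log2 fold change was -0.09 ± 0.53 and lay above 0 without CON replicate 3 or LPS replicate 3.

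All 5 acyl-CoA dehydrogenases, which catalyse the first oxidation of each round for chains of different length, had a log2 fold change below 0. Of them, 2 were lower at an unadjusted p below 0.05, where 6.33% of all tested genes were lower. ACADSB oxidises short branched chains, among them those from isoleucine (ENSSSCG00000010723 on chromosome 14, 132563309 to 132626841). It measured 234, 178 and 156 CPM in the CON libraries and 87.4, 112 and 86.2 CPM in the LPS libraries. Every LPS value lay below every CON value, LPS replicate 2 included, and the LPS mean was 50.3% of the CON mean (log2 fold change -0.99 ± 0.31, edgeR adjusted p = 0.255). ACADL, the long-chain dehydrogenase (ENSSSCG00000016156 on chromosome 15, 112933498 to 112969578), had 41.7, 24.1 and 34.4 CPM in the CON libraries and 5.89, 17.7 and 19.0 CPM in the LPS libraries. The groups did not overlap, and the log2 fold change was -1.22 ± 0.45 with an edgeR adjusted p of 0.316.

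ACADM, the medium-chain dehydrogenase, had 85.2 to 203 CPM in the CON group and 41.4 to 96.2 CPM in the LPS group, so the groups overlapped by LPS replicate 2 (log2 fold change -0.94 ± 0.43, edgeR adjusted p = 0.412). ACADVL, the very long-chain dehydrogenase of the inner membrane, had 99.8 to 126 CPM and 45.3 to 119 CPM, and its log2 fold change of -0.61 ± 0.39 became -1.10 ± 0.35 without LPS replicate 2 (edgeR adjusted p = 0.0800). ACADS, the short-chain dehydrogenase, had overlapping ranges of 147 to 217 CPM and 131 to 173 CPM and a log2 fold change of -0.34 ± 0.31. For ACADS, LPS replicate 1 was the highest LPS library, unlike in the other 4 dehydrogenases.

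The later steps of each round and the enzymes for unsaturated chains comprised 7 tested genes. Of these, 2 were lower at an unadjusted p below 0.05 (6.33% of all tested genes). All LPS values lay below all CON values in 4 of them (9.8% of all tested genes). Without LPS replicate 2, 1 was called lower (3.45% of all tested genes). HADHA and HADHB are the alpha and beta subunits of the mitochondrial trifunctional protein, which carries out the hydration, second oxidation and thiolysis of long chains. HADHA (ENSSSCG00000008571 on chromosome 3, 112752865 to 112797735) had 223, 224 and 197 CPM in the CON libraries and 68.2, 136 and 107 CPM in the LPS libraries, and its log2 fold change was -1.05 ± 0.34 (edgeR adjusted p = 0.263). The CON libraries agreed within 1.14-fold, and the highest LPS value, in LPS replicate 2, was below all of them. HADHB (ENSSSCG00000008569 on chromosome 3, 112704023 to 112753086) had 65.2, 52.6 and 52.5 CPM and 24.6, 43.5 and 37.6 CPM, also without overlap, and a log2 fold change of -0.69 ± 0.31 (edgeR adjusted p = 0.411). The genes lie head to head on opposite strands and share 164 exon bases. Reads from that stretch cannot be assigned if strand was not used in counting, and the strand setting is not known here.

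HADH, the short-chain hydroxyacyl-CoA dehydrogenase, had the closest CON values of the 30 genes (ENSSSCG00000009150 on chromosome 8, 113950033 to 114005512). Its CON values of 118, 116 and 119 CPM lay within 1.02-fold, and its LPS values of 59.7, 94.6 and 80.6 CPM were all lower. The log2 fold change was small, at -0.59 ± 0.30 (edgeR adjusted p = 0.467). DECR1, the reductase that removes a double bond from polyunsaturated chains (ENSSSCG00000006126 on chromosome 4, 46730461 to 46767427), had 64.5, 45.8 and 32.1 CPM in the CON libraries and 9.38, 27.6 and 30.5 CPM in the LPS libraries. The groups did not overlap, but the lowest CON value and the highest LPS value nearly touched (log2 fold change -1.07 ± 0.46, edgeR adjusted p = 0.378).

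ECH1, a dienoyl-CoA isomerase of mitochondria and peroxisomes, had 42.8 to 55.7 CPM in the CON group, 17.4 and 17.9 CPM in LPS replicates 1 and 3, and 46.3 CPM in LPS replicate 2. Its log2 fold change was -0.81 ± 0.41, or -1.43 ± 0.34 without LPS replicate 2 (edgeR adjusted p = 0.0312). ACAA2, the mitochondrial 3-ketoacyl-CoA thiolase, had 56.8 to 116 CPM and 32.1 to 64.1 CPM and a log2 fold change of -0.55 ± 0.40. ECI2, an isomerase of double bonds also found in peroxisomes, was the only gene of this group with a log2 fold change above 0 (0.46 ± 0.33), with 75.5 to 126 CPM in the CON group and 103 to 168 CPM in the LPS group. This direction held in each of the 12 alternatives, none of which called the gene.

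Electron transfer from the acyl-CoA dehydrogenases runs through the flavoprotein formed by ETFA and ETFB, and then through ETFDH to ubiquinone. ETFDH (ENSSSCG00000008877 on chromosome 8, 47608689 to 47657436) had 74.6, 73.1 and 81.97 CPM in the CON libraries and 18.3, 53.2 and 29.2 CPM in the LPS libraries. The groups did not overlap, the CON values lay within 1.12-fold, and the log2 fold change of -1.19 ± 0.39 (edgeR adjusted p = 0.268) became -1.67 ± 0.36 without LPS replicate 2 (edgeR adjusted p = 0.0213). ETFA (ENSSSCG00000001862 on chromosome 7, 56440620 to 56540253) had 78.5, 51.1 and 49.8 CPM in the CON libraries and 27.9, 34.2 and 48.7 CPM in the LPS libraries, also without overlap, since LPS replicate 3 lay just below CON replicate 3. Its log2 fold change was -0.69 ± 0.34 (edgeR adjusted p = 0.441). ETFB was counted only 11, 10 and 12 times in the CON libraries and 3, 7 and 13 times in the LPS libraries. It did not pass the filter with all 6 libraries. Without LPS replicate 2 it passed, with a log2 fold change of -0.61 ± 0.69 and no call. In the table, 944 exon bases of ETFB belong also to CLDND2 on the same strand, which had 16 to 49 counts per library. Reads there may be split between the genes or assigned to neither.

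Among the 3 ketone body genes, all had a log2 fold change below 0, and 1 was lower at an unadjusted p below 0.05 (6.33% of all tested genes). Without LPS replicate 2, 2 were called lower (3.45% of all tested genes). ACAT1, the mitochondrial thiolase that interconverts acetyl-CoA and acetoacetyl-CoA, had the lowest log2 fold change of the 30 genes (ENSSSCG00000026153 on chromosome 9, 36525261 to 36545633). It measured 126, 84.8 and 57.2 CPM in the CON libraries and 10.03, 35.5 and 32.6 CPM in the LPS libraries. Every LPS value lay below every CON value, and the LPS mean was 29.1% of the CON mean, at 26.1 ± 13.95 against 89.4 ± 34.7 CPM (SD, n = 3 libraries per group). The log2 fold change of -1.77 ± 0.49 had an adjusted p of 0.218 in edgeR and of 0.026 in DESeq2, and it became -2.04 ± 0.54 without LPS replicate 2 (edgeR adjusted p = 0.0451).

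BDH1, which reduces acetoacetate to beta-hydroxybutyrate, had 78.1, 117 and 87.0 CPM in the CON libraries and 40.8, 105 and 15.4 CPM in the LPS libraries (ENSSSCG00000024109 on chromosome 13, 132605489 to 132645938). LPS replicates 1 and 3 lay below the CON range and LPS replicate 2 within it, a 6.83-fold span. The log2 fold change of -0.81 ± 0.58 (edgeR adjusted p = 0.608) became -1.76 ± 0.46 without LPS replicate 2 (edgeR adjusted p = 0.0407). OXCT1, which starts ketone body use and is known to be scarce in hepatocytes, had 9 to 50 counts per library, and its log2 fold change of -0.34 ± 0.51 was not distinguishable from 0 at this depth.

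The 4 genes of the fasting response did not all lean to the same side, with 2 lower at an unadjusted p below 0.05 (6.33% of all tested genes). Without LPS replicate 2, 2 were called lower (3.45% of all tested genes). FGF21, a hormone secreted by the fasting liver (ENSSSCG00000003140 on chromosome 6, 54080739 to 54084604), had 66.8, 71.2 and 69.1 CPM in the CON libraries and 23.1, 45.3 and 10.7 CPM in the LPS libraries. Its CON values lay within 1.07-fold, all LPS values were lower, and the log2 fold change was -1.40 ± 0.47 (edgeR adjusted p = 0.273), or -2.05 ± 0.41 without LPS replicate 2 (edgeR adjusted p = 0.0156). VNN1, the pantetheinase that recycles the vitamin moiety of coenzyme A (ENSSSCG00000004181 on chromosome 1, 31000254 to 31059345), had 30.4, 24.1 and 20.8 CPM in the CON libraries and 1.74, 17.3 and 4.64 CPM in the LPS libraries. The groups did not overlap and the LPS libraries spanned 9.94-fold, the widest span of the 30 genes. The lowest of these values rests on 8 reads (exact 95% Poisson interval 3.45 to 15.8, counting error only). VNN1 had a log2 fold change of -1.66 ± 0.66 (edgeR adjusted p = 0.353), or -2.87 ± 0.48 without LPS replicate 2 (edgeR adjusted p = 0.00693).

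ANGPTL4, a secreted inhibitor of lipoprotein lipase that PPAR alpha also drives, had a log2 fold change of opposite sign to FGF21 and VNN1. It had 119 to 226 CPM in the CON group and 186 to 348 CPM in the LPS group, a log2 fold change of 0.66 ± 0.39 (edgeR adjusted p = 0.520) that stayed above 0 in all 12 alternatives without a call. Leaving out CON replicate 3, its highest CON library, brought it below an unadjusted p of 0.05. PDK4, the kinase that turns off pyruvate dehydrogenase when fat is burned (ENSSSCG00000015334 on chromosome 9, 75246002 to 75260134), had 168, 118 and 92.1 CPM in the CON libraries and 33.1, 166 and 159 CPM in the LPS libraries. LPS replicate 1 was far below every other library, and the log2 fold change of -0.07 ± 0.54 lay above 0 without LPS replicate 1 or CON replicate 1.

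**Figure D3:**
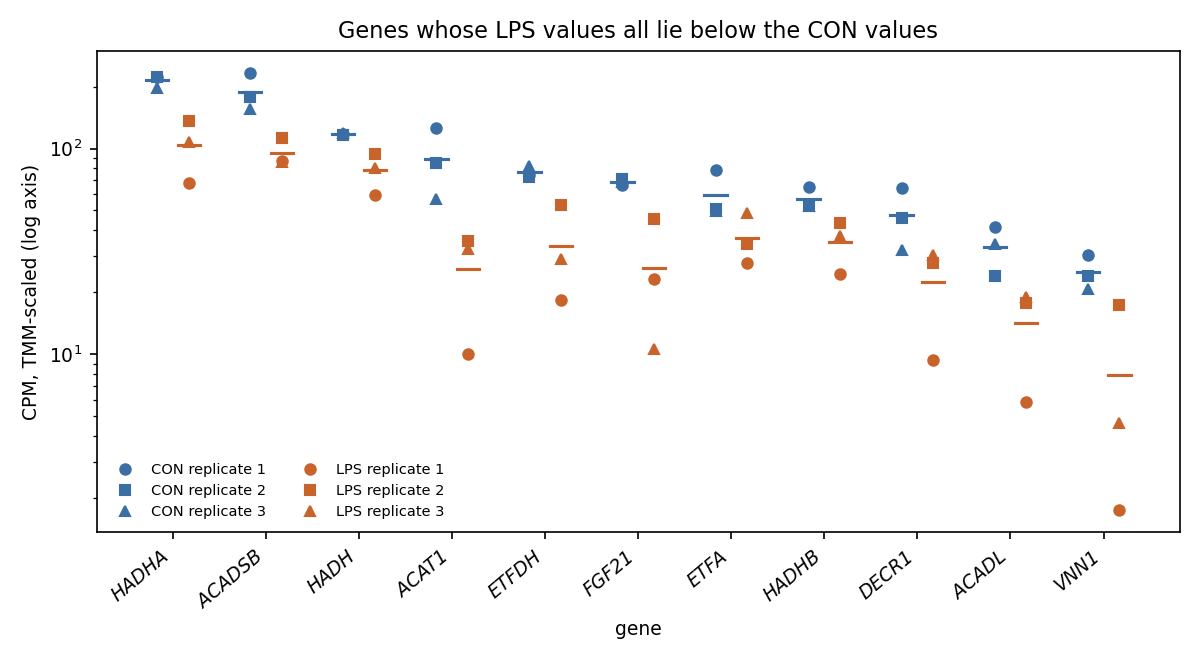
Levels (TMM-scaled CPM, log axis) of the 11 genes whose LPS values all lie below their CON values, with 1 point per library, marker shape for the replicate number and dashes for the group means. The highest LPS point is LPS replicate 2 in most genes, and the gap to the lowest CON point is narrow for DECR1 and ETFA.

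Levels per transcript length were compared as TPM, for which the counts were divided by the gene lengths of the table and scaled to the same total in every library. In the CON group ACSL1 was the most abundant of the 31 genes at 372 ± 90.9 TPM (SD, n = 3), followed by ACADSB at 156 ± 56.5, HADHA at 131 ± 37.6 and ACAT1 at 109.7 ± 55.7 TPM. The spreads of ACADSB, HADHA and ACAT1 overlapped, so their order was not resolved. The scarcest were OXCT1 at 0.555 ± 0.313 and ETFB at 2.21 ± 0.898 TPM. The ETFB value may be too low, since 944 of its 1135 bases are shared with CLDND2 on the same strand. In the LPS group ACSL1 had a mean of 206 ± 176 TPM and ANGPTL4 one of 144 ± 15.7 TPM, but the first rank of ACSL1 rested on LPS replicate 2. ACSL1 was at 124, 407 and 85.1 TPM in LPS replicates 1, 2 and 3, and ANGPTL4, at 163, 135 and 136 TPM, was above it in LPS replicates 1 and 3. In the LPS group ACAT1 was at 28.2 ± 16.9 TPM, a move from rank 4 to rank 14.

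**Figure D4:**
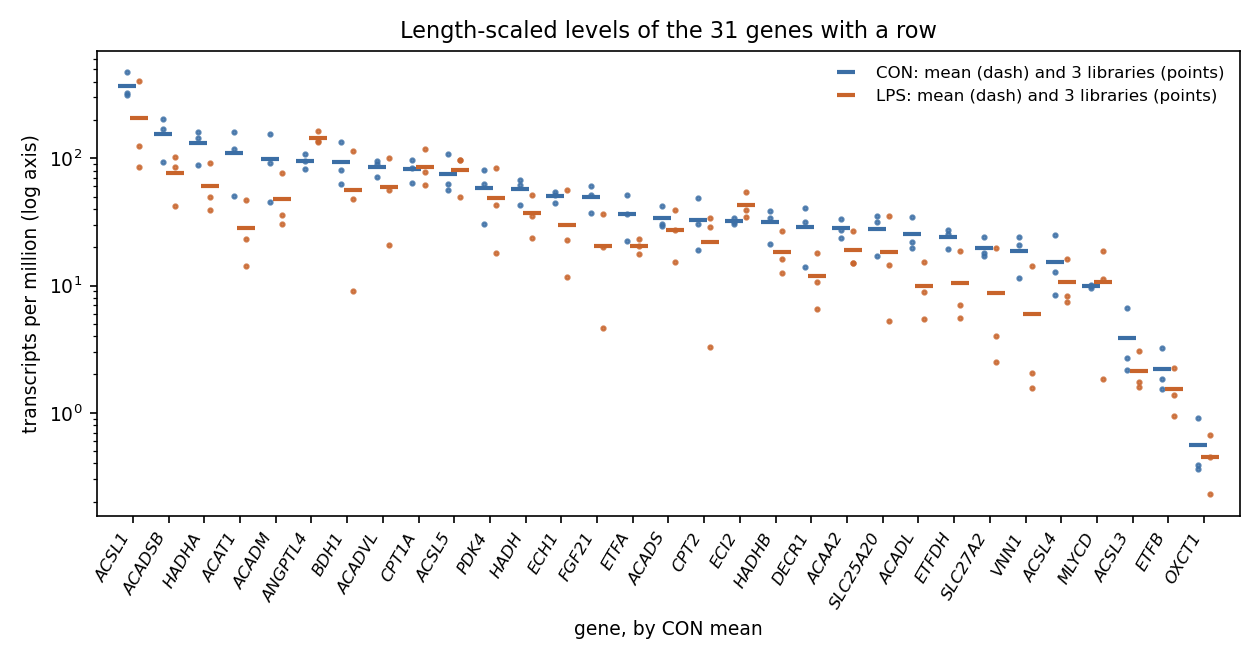
Length-scaled levels (TPM, log axis) of the 31 genes with a row, ordered by the CON mean, with dashes for group means and points for the 3 libraries of each group. Levels span from 372 TPM for ACSL1 to under 1 TPM for OXCT1 in the CON group, and LPS points scatter more widely than CON points in several genes, such as SLC27A2 and FGF21.

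The genes were spread over 14 chromosomes, with 6 of them on chromosome 6 (CPT2, MLYCD, ACADM, ECH1, ETFB and FGF21), and HADHA and HADHB were the only pair that overlapped. Coordinates are those of the count table, whose pig genome build none of the sources used here names. Exons shared with a gene outside the list were also present for ETFDH (376 bases, PPID, opposite strand), ACADVL (336 bases, DVL2, opposite strand) and ECH1 (276 bases, LGALS4, same strand). On the opposite strand, ECI2 shared 497 bases with a gene without a symbol, HADHB 220 bases with ADGRF3 and ACSL1 88 bases with HELT. ACADM shared 96 bases on the same strand with a gene without a symbol, which had 46 to 349 counts per library. LGALS4 had at most 22 counts in any library. PPID had 65 to 479 counts per library beside 84 to 835 for ETFDH.

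Related genes of the pathway that are not among the 34 were taken from further lists, whose counts stand beside the shares over all tested genes already given (at an unadjusted p below 0.05, 6.33% lower and 6.18% higher, and without LPS replicate 2, 3.45% called lower and 3.76% higher). Of 16 tested genes for other entry steps, 4 were lower and 2 higher at an unadjusted p below 0.05, and the median log2 fold change was -0.16. The lower ones included ACSM5 (-1.42 ± 0.43) and ACSM3 (-1.41 ± 0.51), mitochondrial medium-chain acyl-CoA synthetases, and BBOX1 (-1.58 ± 0.53), the last enzyme of carnitine synthesis, and among the higher ones was SLC27A4 (1.57 ± 0.49), a fatty acid transport protein. SLC27A4 had 26.3, 28.0 and 40.9 CPM in the CON libraries and 173, 45.0 and 66.3 CPM in the LPS libraries, the opposite direction to its family member SLC27A2. Without LPS replicate 2, edgeR called SLC27A4 higher (adjusted p = 0.0233) and ACSM5 lower (adjusted p = 0.025). It also called FABP4, a fatty acid binding protein of fat cells and macrophages, lower, but on few reads. FABP4 had 16, 10 and 16 counts in the CON libraries and 0, 9 and 1 in the LPS libraries. SLC27A4 was also called by DESeq2 with all 6 libraries.

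Of 16 other tested enzymes of fatty acid breakdown, 7 were lower and 0 higher at an unadjusted p below 0.05, 11 had all LPS values below all CON values, and the median log2 fold change was -0.55, where 6.33%, 6.18% and 9.8% of all tested genes were lower, higher and below the CON values. Those with the lowest p were ECHDC1 (-1.48 ± 0.42), ACAD11 (-1.93 ± 0.61), ACAA1 (-1.06 ± 0.35) and PCCA (-1.04 ± 0.37). These are not core enzymes of the mitochondrial round, since ECHDC1 is a cytosolic decarboxylase, ACAD11 acts on hydroxy and very long chains, ACAA1 is the peroxisomal thiolase, and PCCA is a subunit of propionyl-CoA carboxylase. ECHS1, the mitochondrial enoyl-CoA hydratase, is named outside the rule and after its values were seen, with 727, 1157 and 739.7 CPM in the CON libraries and 579, 580.5 and 692 CPM in the LPS libraries (log2 fold change -0.50 ± 0.32). Without LPS replicate 2, edgeR called 1 of these 16 genes, ACAD11 (adjusted p = 0.00152), which DESeq2 called with all 6 libraries.

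The other ketone body genes did not lean to 1 side, with 1 of 8 tested genes lower, 1 higher and a median log2 fold change of 0.00. SLC16A7, a transporter of monocarboxylates such as ketone bodies and pyruvate, had 2.95, 0.937 and 1.09 CPM in the CON libraries and 6.98, 5.89 and 12.6 CPM in the LPS libraries (log2 fold change 2.32 ± 0.55, edgeR adjusted p = 0.161), without overlap. It was called higher by DESeq2, and by edgeR without LPS replicate 2 (adjusted p = 0.0216). BDH2, a cytosolic hydroxybutyrate dehydrogenase, had a log2 fold change of -1.04 ± 0.44, SLC16A6, which exports ketone bodies from hepatocytes, of 0.69 ± 0.37, and SIRT5, a mitochondrial desuccinylase, of -0.42 ± 0.35.

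Of 37 tested regulators and other PPAR alpha targets, 4 were lower and 3 higher at an unadjusted p below 0.05, and the median log2 fold change was -0.04. PPARA itself had 79.6, 67.0 and 75.8 CPM in the CON libraries and 32.3, 57.8 and 27.8 CPM in the LPS libraries, without overlap (log2 fold change -0.92 ± 0.35, edgeR adjusted p = 0.329). LIPA, the lysosomal acid lipase, had a log2 fold change of -1.15 ± 0.42 and PDK2, a pyruvate dehydrogenase kinase, of -1.41 ± 0.54. ABHD5, the activator of adipose triglyceride lipase, stood on the other side at 1.11 ± 0.45. Without LPS replicate 2, edgeR called PPARA (-1.30, adjusted p = 0.0403), PDK2, LIPA, G0S2 and CIDEC lower and ABHD5 higher.

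A list of peroxisomal fatty acid oxidation, the parallel route for very long and branched chains, and of peroxisome assembly genes gave counts of similar size. It shares ACAA1 and CROT with the lists above, so these lists are not separate sets of genes. Of 28 tested genes, 9 were lower and 1 higher at an unadjusted p below 0.05, the median log2 fold change was -0.57, and without LPS replicate 2 edgeR called 7 lower and 0 higher. The genes with the lowest p were PEX3 (-1.53 ± 0.42), a factor for peroxisome assembly, CAT (-1.89 ± 0.52), the peroxisomal catalase, ACOX2 (-1.58 ± 0.46), the oxidase for branched chains and bile acid precursors, and EHHADH (-1.33 ± 0.41), the peroxisomal bifunctional enzyme.

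Nuclear-encoded subunits of the respiratory chain, which receive the electrons from fatty acid oxidation, had a median log2 fold change of 0.13. Of 54 tested genes, 0 were lower and 1 higher at an unadjusted p below 0.05, namely CYCS, the gene for cytochrome c (2.59 ± 0.82), whose LPS values of 87.7, 34.4 and 361 CPM overlapped its CON values of 42.7, 11.6 and 25.6 CPM. The next lowest p belonged to NDUFC2 (-0.68 ± 0.31) and NDUFB6 (0.65 ± 0.34) of complex I and UQCRQ (0.91 ± 0.43) of complex III. The medians of the lists were described side by side and their difference was not tested.

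**Figure D5:**
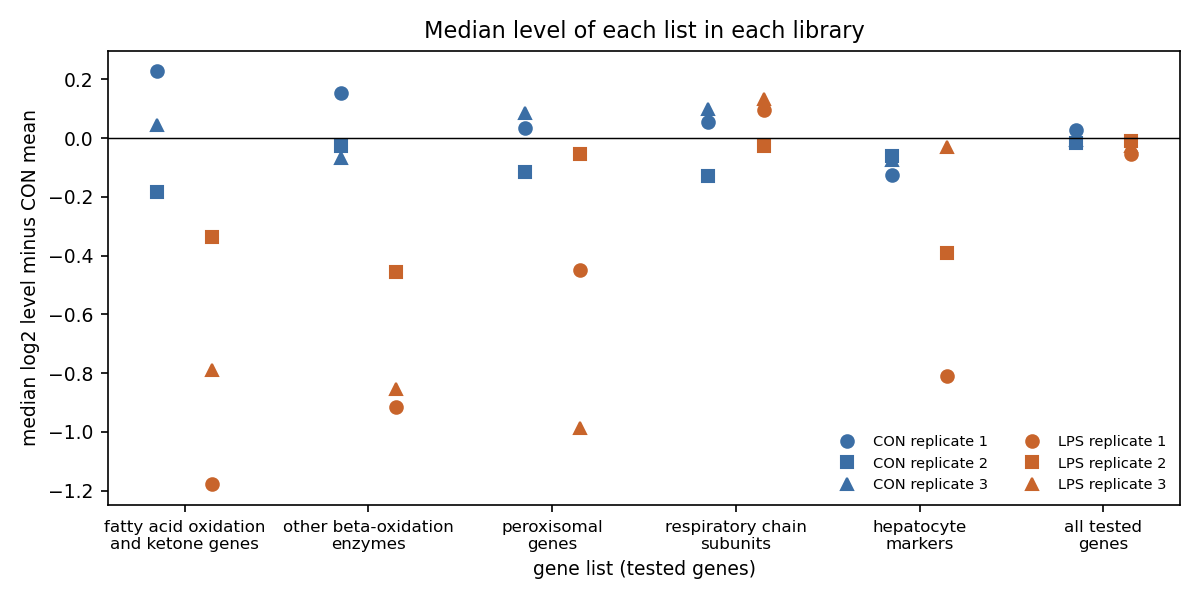
Median over the tested genes of 5 lists and of all tested genes in each library, as log2 level minus the CON mean, with blue for CON and orange for LPS libraries and marker shape for the replicate number. LPS libraries lie at -1.18, -0.34 and -0.79 for the fatty acid oxidation and ketone genes and between -0.03 and 0.13 for the respiratory chain, while hepatocyte markers reach -0.81 in LPS replicate 1.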

How the data were processed

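For the 6 input libraries the authors deposited unnormalized read counts, 1 row per gene, with gene coordinates and lengths. The submitters' processing notes name cutadapt 1.9.3 and HISAT2, and the genome builds galGal6 and hg38, neither of them a pig build. The counting program, pig build and strand setting were not given in the sources used here. The labels list 2 sequencing entries for each of CON replicates 1 and 2 where the table has 1 column, and 0 sample columns were left unmapped. Immunoprecipitated libraries were not analysed here.

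A table of gene names paired 15029 of the 31908 identifiers with a symbol. The counts went into edgeR 4.0.16 under R 4.3.3 (filterByExpr with a minimum count of 10, TMM, glmQLFit with robust settings and glmQLFTest), over all genes at once. Standard errors were obtained from the log2 fold change and the quasi-likelihood F value (absolute log2 fold change over the root of F). CPM are TMM-scaled, log2 levels carry 0.5 CPM as pseudocount, and no pair of libraries was a repeat within sampling noise, with 32.7 as the lowest chi-square per gene. The fits were tested on simulated data first.

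The members, the further gene and marker lists and the rule for named genes were chosen with earlier results of these data known. The rule gives every library's value for members with an unadjusted p below 0.05, non-overlapping groups or LPS libraries spanning over 4-fold, gives the others by range, and names up to 4 genes of lowest p per further list. Marker lists also covered T or NK cells (0 higher and 1 lower of 9 tested), B cells (0 and 0 of 8), endothelial cells (1 and 2 of 9), cholangiocytes or stellate cells (3 and 0 of 12), red blood cells or platelets (2 and 0 of 3), adipocytes (0 and 0 of 4) and muscle (0 and 0 of 3), at an unadjusted p below 0.05. At that p, 6.18% of all tested genes were higher and 6.33% lower. Alternatives were RLE factors, total counts, no filter, limma-voom (limma 3.58.1), DESeq2 1.42.0, a replicate block, no fold threshold, and each library left out. Some genes of the further lists are not reported here by name.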

Additional observations from a re-analysis of the deposited data

How the results depend on the processing

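Among the log2 fold changes of the 30 genes, 9 changed sign when a library was left out and 1 in another alternative, in genes that were not called. These were ACSL4 (0.14 without CON replicate 1, 0.13 without LPS replicate 1 and 0.08 without LPS replicate 2, with -1.21 as the lowest value), ACSL5 (-0.31 without LPS replicate 3, up to 0.64), MLYCD (0.13 without CON replicate 3 and 0.36 without LPS replicate 3, down to -0.77), OXCT1 (0.11 without CON replicate 1, down to -0.59), PDK4 (0.19 without CON replicate 1 and 0.38 without LPS replicate 1, down to -0.38) and CPT1A (-0.0029 with total counts). The cause was not tested. DESeq2 called 1 member lower (ACAT1). Without the filter on low counts, edgeR called 5 of 31 tested members lower (ACADL, ACAT1, FGF21, SLC27A2 and VNN1). The share over all 23529 genes of that fit, low-count genes included, was 1.48%. At an unadjusted p below 0.05 in that fit, 14 members were lower, where 5.81% of its genes were. Leaving out each library in turn gave 0 to 9 called lower, 5 to 16 lower and 0 to 1 higher (ANGPTL4) at an unadjusted p below 0.05, and a median log2 fold change of -1.11 to -0.54. Over all tested genes, the numbers called higher and lower were 8 and 1 with RLE factors, 11 and 1 with total counts, 536 and 349 without the filter, 275 and 141 with DESeq2, and 4 and 2 with limma-voom. Leaving out each library gave 0 to 512 higher and 0 to 470 lower. Total counts moved the median of all genes from 0.01 to -0.12 and that of the 30 genes to -0.81, which is -0.69 relative to all genes.

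With the replicate number as a block, 42 genes were called higher and 9 lower over all genes and 0 of the 30. The same-numbered CON and LPS libraries deviated from their group means with correlations of -0.26, 0.22 and 0.03. These values show no pairing by number, but with 3 libraries per group they cannot exclude one. Best matches by this measure were CON replicate 1 with LPS replicate 3, CON replicate 2 with LPS replicate 2 and CON replicate 3 with LPS replicate 1, so not every library matched its own number best.

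The unequal depth limits LPS replicate 1 most, since it has the fewest reads and VNN1 rests there on 8 of them.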

Other observations

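Ratios of length-scaled levels (TPM) between genes of 1 library do not depend on how libraries are scaled to each other. The pairs below were chosen after the values were seen and carry no test. HADHA over HADHB, the subunits of 1 complex, was 3.77, 4.68 and 4.13 in the CON group (replicates in order) and 3.05, 3.45 and 3.14 in the LPS group, without overlap, with the shared exon bases of these genes as a limit. ECI2 over HADHA was 0.232, 0.190 and 0.359 in the CON group and 1.08, 0.426 and 0.886 in the LPS group. ANGPTL4 over FGF21, both secreted products of genes that PPAR alpha drives, was 1.60, 1.58 and 2.95 in the CON group and 8.12, 3.70 and 29.4 in the LPS group, so that LPS replicate 2 was nearest to the CON libraries and still above them. CPT1A over CPT2 was 1.99, 4.37 and 2.10 in the CON group and 2.71, 3.48 and 18.7 in the LPS group, where LPS replicate 3 alone left the CON range. ACSL1 over ACSL5 was 4.42, 5.56 and 5.21 in the CON group, 1.29 and 0.874 in LPS replicates 1 and 3, and 8.25 in LPS replicate 2. ACAT1 over BDH1 had overlapping ranges, at 0.803 to 1.98 in the CON group and 0.301 to 2.60 in the LPS group.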
